A study of Drosophila melanogaster with 59 samples.

Results

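White* is a Drosophila melanogaster line whose deposited variant list holds 2379 single-base differences (SNPs), of which 569 (23.9%) lie in an exon and are described here. A SNP was counted as exonic when its location entry named a coding exon, a 5′ UTR or a 3′ UTR of at least 1 gene. These 569 SNPs touched 188 genes, all of which matched a RefSeq gene, 18 of them under another symbol. The matching list of the Red* line holds 36 exonic SNPs among 168 (21.4%), in 25 genes. No gene was hit in an exon in both lists, which hit 1.05% (White*) and 0.14% (Red*) of the 17872 RefSeq genes. The exonic SNPs of the lists lie mostly on different arms. Of the 36 Red* SNPs 29 are on 3L and 7 on 3R, and 568 of the 569 White* SNPs are on 3R.

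Of the 4 lines of the study, 3 carry the same genotype in the labels, w[1118] with the Fab2L transgene, in which a Polycomb response element sits beside the mini-white eye color reporter. They are Fab2L itself and White* and Red*, which were derived from it and are named for their eye color, while the fourth line, w1118, carries no transgene. Genomic DNA came from 4-day-old adult females, 150 flies pooled per line, in 3 libraries for each of Fab2L, White* and Red* in each of 3 backgrounds, namely Oregon-R (OR), Oregon-R after 11 further generations (OR+11) and Canton-S (CS). The list gives 1 call per SNP and background, read here as the call of the White* line, so each call describes a pool of flies and has no replicate. Long RNA, above 200 nt and freed of ribosomal RNA, was sequenced from heads of 4-day-old adult males and from unfertilized eggs of the 4 lines in the Oregon-R background, with 2 libraries per line and tissue.

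A SNP in a coding exon either leaves the amino acid unchanged (synonymous), changes it (nonsynonymous) or creates a stop codon (nonsense). A SNP in a UTR changes the transcript but not the protein, and UTRs carry sites that set the stability and translation of the mRNA. SNPs that lie close together on 1 chromosome are passed on together until recombination separates them, so neighbouring SNPs are not independent of each other, and no test was made on their counts.

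Marker genes were read in the 16 long RNA libraries. The neuron marker genes elav, nSyb, Syt1 and brp summed to between 195 and 292 FPKM (fragments per kilobase of gene and 1 M reads) in head libraries and to at most 0.189 in egg libraries. The maternal mRNAs bcd, CycB, gcl, osk and pgc summed to between 1557 and 1945 FPKM in egg libraries, and at most 14.2 in head libraries. Of the 4 zygotic markers bnk, nullo and Sry-alpha were at 0 in eggs and slam was at 14.8 to 18.2 FPKM, and the photoreceptor gene norpA was at 13.1 to 15.9 there. The depth read from the FPKM steps of short genes was 13.2 to 16.5 M reads in the heads of White* and Fab2L, 26.0 to 38.2 M in those of Red* and w1118, and 28.1 to 35.2 M in eggs. Nothing in the labels states that a line's 2 libraries were separate cultures, and a p-value here therefore reflects no more than library-to-library spread, possibly of technical origin. An exact permutation test of 2 libraries against 2 cannot go below p = 0.333, and calls were therefore taken from a limma fit over all genes.

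Most exonic SNPs lay in coding sequence. A coding entry was present for 374 of the 569 SNPs, a 5′ UTR entry for 65 and a 3′ UTR entry for 145. Of the 374 coding SNPs, 268 were synonymous (71.7%), 105 nonsynonymous (28.1%) and 1 nonsense. The coding SNPs of the Red* list were 19 synonymous and 4 nonsynonymous of 23. A share of the exonic SNPs also fell in another class for a second transcript or gene: 224 had a promoter entry beside the exonic one and 83 an intron entry, which left 289 with no other class. No SNP was coding for more than 1 gene.

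Transitions, the exchange of a purine for a purine or a pyrimidine for a pyrimidine, made up 61.5% of the exonic SNPs and 52.0% of the 1810 White*-specific SNPs outside exons. Their share was 70.9% among synonymous, 54.3% among nonsynonymous and 52.8% among UTR-only SNPs. The authors' quality score of an exonic SNP lay between 4.77 and 176, with a median of 77.0, beside a median of 81.0 outside exons. Nonsynonymous SNPs had a median score of 86.0 and synonymous SNPs of 79.0, and 7 exonic SNPs scored below 20.

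The exonic SNPs were almost all in the distal part of chromosome arm 3R. On build dm6, 568 of the 569 lay on 3R between positions 25581932 and 30730263. The remaining SNP, G2872669T on 3L (in every such name the first letter is the first allele of the deposited identifier, the number is the dm6 position and the last letter is the second allele), lay in the 5′ UTR of Tet, a gene of the TET dioxygenase family. Its score was 19.1, and it was called 0/1 in OR and OR+11 and 1/1 in CS.

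Of the 2379 White*-specific SNPs of any class, 2373 lay in 5 runs on 3R. A run is a stretch with no gap above 100 kb and at least 10 SNPs. Run 1 (3R, 25454403 to 27505661, 2051 kb) held 372 exonic SNPs in 126 of its 305 RefSeq genes. Run 2 (28525592 to 28832353, 307 kb) held 80 exonic SNPs in 22 of 41 genes, and run 3 (28990237 to 29359855, 370 kb) held 90 in 26 of 62 genes. Run 4 (29510139 to 29893355, 383 kb) stood apart in density, with 5 exonic SNPs in 4 of 69 genes, and run 5 (30474679 to 30757811, 283 kb) held 21 in 9 of 50 genes. The stretch between run 1 and run 2 was 1020 kb long and held no exonic SNP.

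Within the runs the exonic SNPs were unevenly spread, as the plot of SNPs per 50 kb shows. The fullest 50 kb window began 1800 kb from the first SNP of run 1 and held 47 exonic SNPs, 21 of them nonsynonymous. It takes in the neighbouring genes woc, l(3)mbt, CG3368 and Hmu and the start of CG3339. Of the 105 nonsynonymous SNPs, 20 (19.0%) were in l(3)mbt, CG3368, Hmu and CG3339. The next fullest window, 500 kb from the first SNP, held 46 exonic SNPs of which 5 were nonsynonymous.

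**Figure D1:**
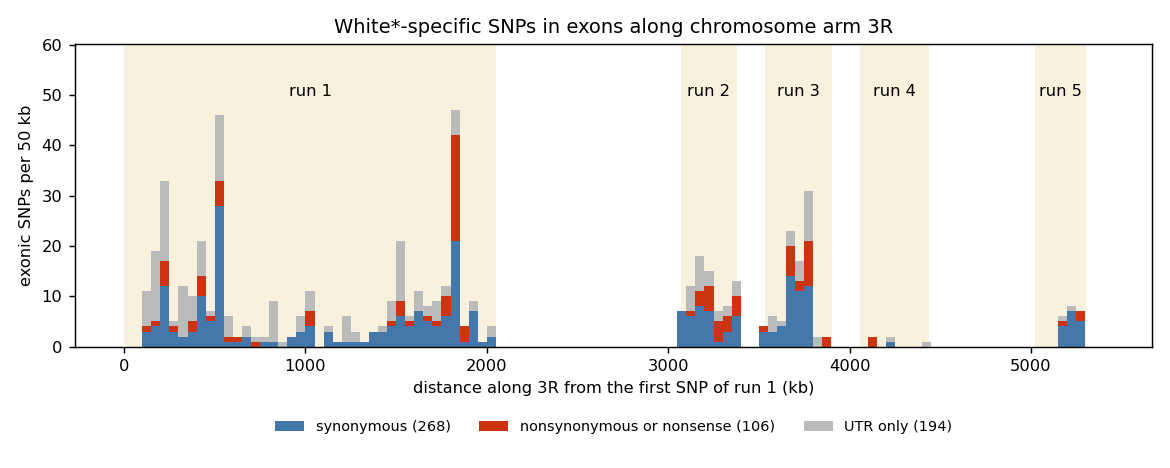
Number of White*-specific exonic SNPs per 50 kb (vertical axis) against the distance in kb from the first SNP of run 1 on 3R (horizontal axis), split into synonymous, nonsynonymous or nonsense, and UTR-only SNPs; shaded bands are the 5 runs. The fullest windows, with 47 and 46 SNPs, begin 1800 and 500 kb from the first SNP of run 1, and run 4 holds 5 SNPs.

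Most exonic SNPs were heterozygous calls in every background: 445 of 569 (78.2%) were called 0/1 in OR, OR+11 and CS alike. A 1/1 call was given to 83 exonic SNPs in OR (14.6%), 72 in OR+11 (12.7%) and 15 in CS (2.64%). The same calls took 17.9%, 15.6% and 5.25% of the SNPs outside exons. Among nonsynonymous SNPs 7 of 105 were 1/1 in OR, 7 in OR+11 and 2 in CS, and among synonymous SNPs 33, 23 and 6 of 268.

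The 1/1 calls were not spread evenly along 3R. Of the 118 exonic SNPs in the first 500 kb of run 1, 45.8% were 1/1 in OR, 39.0% in OR+11 and 1.69% in CS. In the next 500 kb these shares were 21.2%, 17.5% and 3.75% of 80 SNPs. Between 1500 and 2000 kb they were 0.781%, 1.56% and 0.781% of 128 SNPs. The quality score moved along with them, from a median of 65.1 in the first 500 kb to 107 between 1500 and 2000 kb, and its part in the calls was not tested. In runs 2, 3 and 5 together no exonic SNP was 1/1 in OR.

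RASSF8, a gene of the Ras association domain family at 3R 25661795 to 25665640, held 10 of the 83 exonic SNPs that were 1/1 in OR. Of its 11 exonic SNPs, 10 were 1/1 in OR+11, and none in CS. In msi, which encodes the RNA-binding protein Musashi, 6 of 11 exonic SNPs were 1/1 in OR and 5 in OR+11, and again none in CS.

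Run 4 was the only run whose exonic SNPs were mostly 1/1 in all 3 backgrounds. All 5 were 1/1 in OR and in OR+11, and 4 of 5 in CS. The 4 SNPs that were 1/1 throughout, and so the 4 that the list marks as homozygous, were T29600745C (nonsynonymous, CG7568), C29666729A (synonymous, ppk21, a gene of the pickpocket sodium channel family), A29682632C (5′ UTR of Gycalpha99B, a subunit of soluble guanylyl cyclase) and T29877430C (5′ UTR of CG31038). The fifth, the nonsynonymous C29600214T in CG7568, was 0/1 in CS. Outside exons 48 of 1810 SNPs (2.65%) were marked homozygous, against 0.703% of the exonic ones. Of the 60 SNPs of any class in run 4, 86.7% were 1/1 in OR, 100% in OR+11 and 91.7% in CS. Only 8.33% of these 60 were exonic, beside 23.9% of all White*-specific SNPs. The contrast between exons and other DNA thus cannot be told apart from position.

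**Figure D2:**
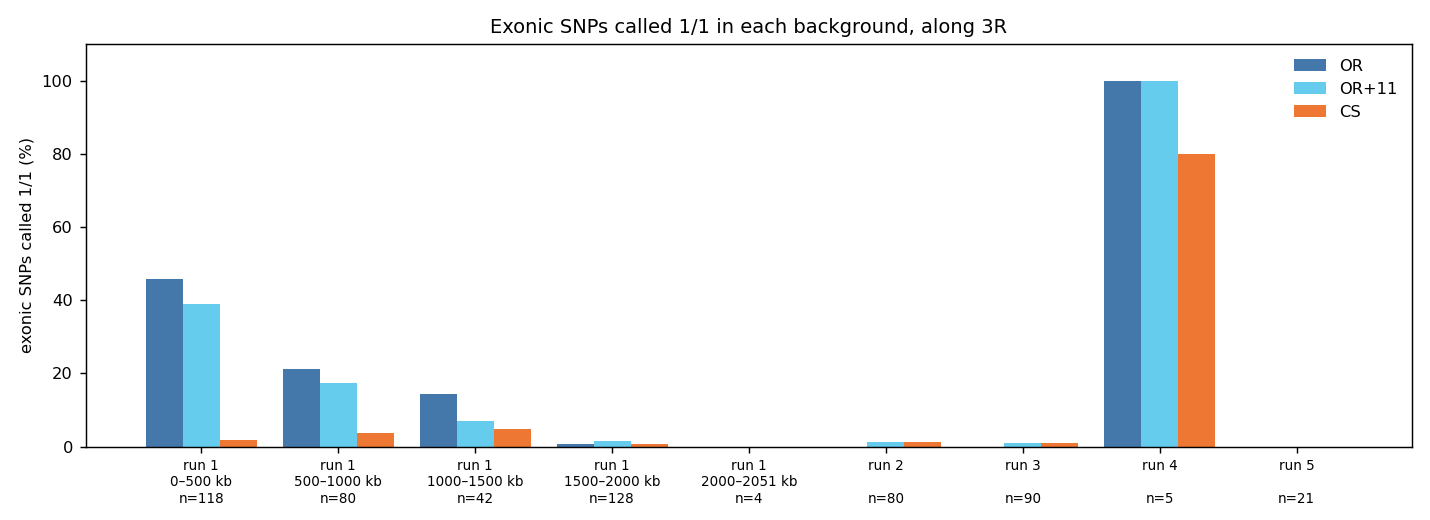
Percentage of exonic SNPs called 1/1 (vertical axis) in OR, OR+11 and CS, for 500 kb stretches of run 1 and for runs 2 to 5 (horizontal axis, with the number of exonic SNPs). In OR the share falls from 45.8% in the first stretch to 0.781% in the fourth, and reaches 100% only in run 4, which has 5 SNPs.

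The number of exonic SNPs per gene had a median of 2, with 75 genes holding 1 and 7 genes holding 10 or more. The 10 genes with the most held 116 of the 574 SNP and gene entries (20.2%). First was fid (CG42261 in the list; 3R 25970080 to 25982736) with 19, of which 11 were synonymous and none nonsynonymous. CG3368 followed with 16, CG10011 with 13, and CG11951, RASSF8 and msi with 11 each. Nf1, the Ras GTPase-activating protein neurofibromin, lay next to fid and held 10, of which 9 were synonymous and 1 was in the 5′ UTR. CG31091 held 9, and l(3)mbt and CG31445 held 8 each, a number shared with woc, Ctl2 and LpR1, a lipophorin receptor gene. No role is given here for genes known by a CG number alone.

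These genes differed in the kind of SNP they held. In msi 10 of 11 SNPs were in the 3′ UTR, and in RASSF8 all but 1 were in the UTRs. By contrast, 8 of the 16 in CG3368 changed an amino acid. A nonsynonymous or nonsense SNP was present in 61 genes, and 22 genes held 2 or more nonsynonymous SNPs.

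**Figure D3:**
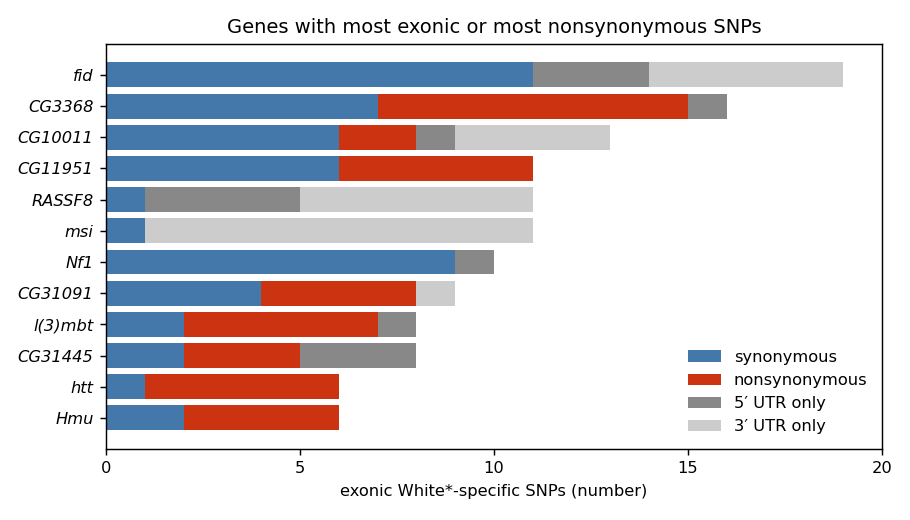
Number of exonic White*-specific SNPs (horizontal axis) in the 10 genes with most and in htt and Hmu, which are among those with most nonsynonymous SNPs (vertical axis), split by consequence and UTR. The bar of fid reaches 19 with no nonsynonymous part, and that of CG3368 reaches 16 with 8.

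After CG3368, the most nonsynonymous SNPs were in l(3)mbt, htt and CG11951 with 5 each, and in Hmu and CG31091 with 4 each. The gene l(3)mbt (3R 27266326 to 27273273) encodes a chromatin protein with MBT repeats that acts as a tumor suppressor in larval brains. Its 5 nonsynonymous SNPs were C27269135A, G27269501T, C27269687T, G27269819T and A27269852G, all within 1 kb, with scores from 102 to 108. The gene htt (3R 28696242 to 28734816), the fly huntingtin gene, held G28696692T, C28714957A, G28718569T, C28725224T and A28733237G, with scores from 25.0 to 94.0. All 10 were 0/1 in the 3 backgrounds. CG33346, whose long RNA is described below, held 3 nonsynonymous and 3 synonymous SNPs in 1220 bp.

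The 1 nonsense SNP was T25685393A in CLS (3R 25685236 to 25687370), which encodes cardiolipin synthase, the enzyme that makes the lipid cardiolipin in mitochondria. Its score was 61.0, and it was called 1/1 in OR and 0/1 in OR+11 and CS. CLS long RNA in heads was 18.0 and 17.0 FPKM in White*, 16.3 and 16.0 in Fab2L, 13.4 and 14.3 in Red* and 17.0 and 17.3 in w1118. In eggs it was 18.4 and 17.8 in White*, 17.0 and 17.1 in Fab2L, 17.4 and 17.6 in Red* and 23.2 and 24.4 in w1118. CLS passed the test in none of the 4 comparisons of White*, with a log2 difference from Fab2L of 0.11 ± 0.08 (SE) in heads and 0.08 ± 0.05 in eggs.

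None of 8 lists tied to the study's subject held a gene with an exonic SNP. These were 22 Polycomb repressive complex genes, 11 PRE-binding factors, 20 trithorax group genes, 8 Hox genes, 15 insulator and boundary genes, 14 heterochromatin genes, 29 small RNA pathway genes and 25 eye pigment genes. Over all RefSeq genes 1.05% were hit, and of the 144 list entries 1, the pigment gene ca, lay inside a run, so a count of 0 is near this background. Other chromatin genes outside these lists were hit, among them l(3)mbt, woc, a zinc finger gene with 8 exonic SNPs, and yem, whose protein takes part in depositing histone H3.3, with 2. These were singled out after the SNPs had been read.

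Few small insertions or deletions of White* shared these genes. Of 30 deletions specific to White*, 14 lay in the runs and 1 in an exon of a gene with an exonic SNP, the 3′ UTR of CG5071. Of 16 insertions, 5 lay in the runs and 1 in an exon of such a gene, the coding sequence of jigr1.

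Of the 188 genes, 185 had a row in the long RNA tables. The test covered genes above 1 FPKM in 2 or more libraries of the tissue, which kept 118 of the 185 in heads and 76 in eggs, 70 of them in both, and left 61 in neither. FPKM was 0 in all head libraries for 7 genes and in all egg libraries for 33. The highest mean level was that of CG6503 in heads, at 634 FPKM, and of CG14545 in eggs, at 269. Counts and medians below refer to the genes tested and not to all 188. Differences are on the log2(FPKM + 1) scale, which understates the change of genes with low levels, and a gene was called at an adjusted p below 0.05 over all genes tested.

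In heads, 1 of the 118 genes tested was called between White* and Fab2L (0.847%), where 0.117% of all 11119 genes were called (0.0899% higher and 0.027% lower in White*). This was CG33346 (3R 28669233 to 28670452, run 2), which passed the filter on low values only through its 2 White* libraries and so had to differ. None of the other 117 genes was called by limma. Its level in White* heads was 5.79 and 5.72 FPKM, a mean of 5.76 ± 0.05 (SD, n = 2). It was 0.0688 and 0.125 in Fab2L, 0.105 and 0.0239 in Red* and 0.0592 and 0.0349 in w1118. The lower White* library stood 45.6-fold above the highest of the 6 others, and in eggs the gene was listed at 0 in all 8 libraries.

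The log2 difference of CG33346 was 2.62 ± 0.15 (SE) from Fab2L and 2.67 ± 0.15 from Red*. Given how it entered the test, the fit with no filter on low values is the one to read, and its limma adjusted p was 0.00027 against Fab2L and 0.000242 against Red*. The call against Fab2L was lost without White* replicate 1 (adjusted p = 0.0534), at a pseudocount of 0.1, where the difference was 4.91 (adjusted p = 0.0721), and with only genes above 5 FPKM (adjusted p = 0.163). Against Red* the gene passed under all 10 alternatives, but all except the fit with no filter let it in only through its White* libraries. Those passes were partly set by the filter and give no further support. Its 6 SNPs were all coding and 0/1 in every background (the nonsynonymous ones are G28669238C, C28669591T and T28669807A).

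The median log2 difference from Fab2L in heads was 0.01 over the 118 genes and 0.00 over all genes tested. The median absolute difference was 0.08, beside 0.09 over all. An unadjusted p below 0.05 was reached by 7.63% of the 118 and 8% of all. Photoreceptor markers summed to 11041 to 11976 FPKM in White* heads and 9659 to 10007 in Fab2L heads. Fat body markers summed to 788 to 848 in White* and 1129 to 1370 in Fab2L. Neuron, glia and muscle markers overlapped, and the part of these shifts in this comparison was not tested.

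Between White* and Red* heads 8 of the 118 genes were called (6.78%), 5 higher and 3 lower in White*, where 3.87% of all genes were (3.02% higher and 0.845% lower). Higher in White* were CG33346, Pdhb, CG6073, CG6420 and CG6051. Lower were CG31077, CG5890 and CG5039. An unadjusted p below 0.05 was reached by 26.3% of the 118 and 23.2% of all. Without CG33346 the count was 7 of 117 (5.98%). Among the 7, CG31077 passed the filter on low values only through its w1118 and Red* libraries. The count of 8 was not stable: it changed when single libraries were left out, and was 4 with the replicate number as a block. Cell type markers moved with this comparison: photoreceptor markers summed to 11041 to 11976 FPKM in White* and 8306 to 9482 in Red* heads, neuron markers to 207 to 221 and 231 to 288, and glia markers to 97.8 to 113 and 121 to 150. Muscle markers summed to 354 to 368 and 372 to 402, and fat body markers overlapped (788 to 848 and 769 to 959). In bulk heads fewer cells of a type and less RNA per cell cannot be told apart, and the part of these shifts in the calls was not tested.

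Among the 8, CG31077 showed the second largest difference. Its level in heads was 11.4 and 9.42 FPKM in w1118, 5.40 and 3.41 in Red*, 0.503 and 0.545 in Fab2L and 0.326 and 0.243 in White*. White* and Fab2L were thus both low, w1118 was high and Red* lay between, with no overlap among these levels. CG31077 passed the filter on low values only through its w1118 and Red* libraries, so no p is given against Red*. White* was lower than Red* by 2.05 (log2 difference -2.05 ± 0.19), a call that did not hold under every alternative. It did not pass the test against Fab2L (-0.25 ± 0.19, limma adjusted p = 0.836). The gene overlaps RYa-R, a neuropeptide receptor gene, and reads of the pair cannot be told apart where strand is not stated.

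Pdhb, the beta subunit of the pyruvate dehydrogenase that feeds the citric acid cycle, was at 64.5 and 70.8 FPKM in White* heads and at 29.7 and 42.3 in Red* heads. Its levels were 57.1 and 49.7 in Fab2L and 71.5 and 82.5 in w1118, so both Red* libraries were the lowest of the 8. The difference from Red* was 0.91 ± 0.17 (limma adjusted p = 0.0338; 0.188 without White* replicate 2). Its 1 exonic SNP, A29116099G in the 3′ UTR, had a score of 8.64. CG6051 was at 21.6 and 22.3 FPKM in White* heads and at 16.1 in both Red* libraries, again with Red* lowest, a difference of 0.42 ± 0.08 (adjusted p = 0.0338; 0.183 without White* replicate 2).

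**Figure D4:**
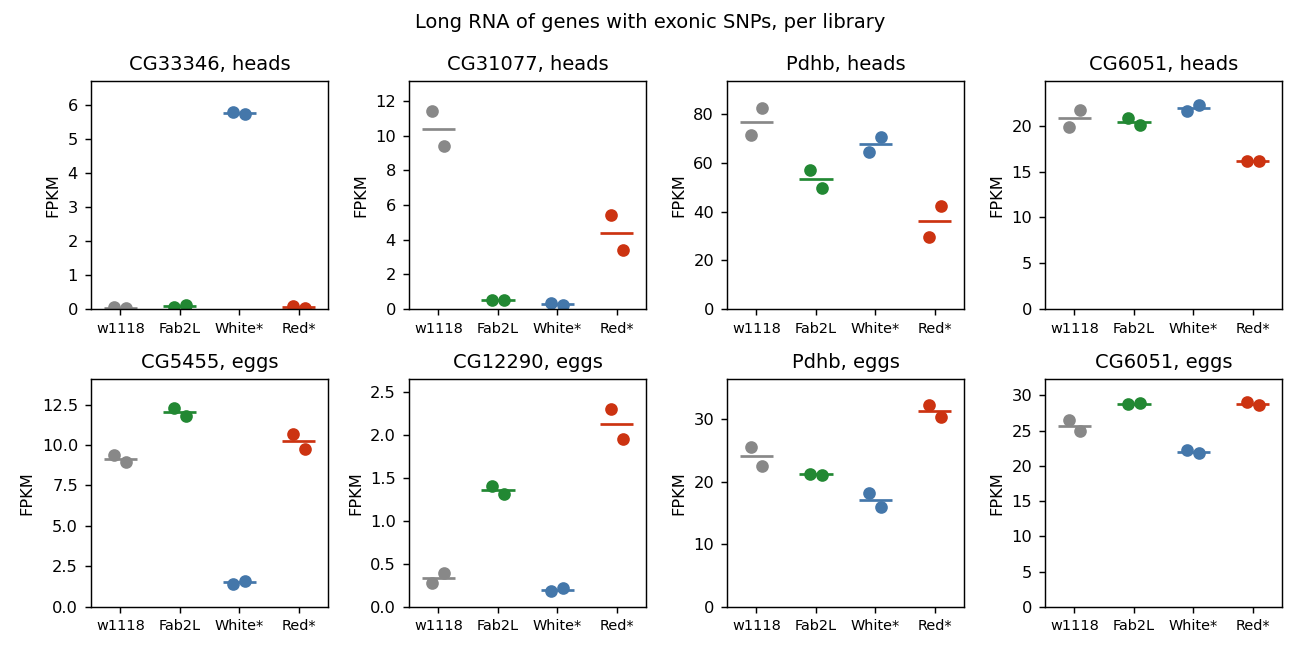
Long RNA level in FPKM (vertical axis, starting at 0) of 6 genes with exonic SNPs in the 4 lines (horizontal axis), with 1 point per library and a line at the mean of 2. White* stands alone for CG33346 in heads (5.79 and 5.72) and for CG5455 in eggs (1.43 and 1.58), while Pdhb and CG6051 are higher in White* than in Red* in heads and lower in eggs.

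In eggs, 26 of the 76 genes tested were called between White* and Fab2L (34.2%), 10 higher and 16 lower in White*, where 15.4% of all 6682 genes were called (6.57% higher and 8.87% lower). An unadjusted p below 0.05 was reached by 46.1% of the 76 and 33.7% of all. The median log2 difference was -0.04 over the 76 genes and 0.01 over all genes, and the median absolute difference 0.17 beside 0.11. With single libraries left out, the count was between 4 (White* replicate 2 left out) and 14 (White* replicate 1 left out), and 4 genes were called in each of the 4 such fits: CG5455, CG12290, CG5039 and Mst57Dc. Mst57Dc passed the filter on low values only through its White* libraries, and without it 25 of 75 genes were called (33.3%). CG12290 passed it only through its Fab2L and Red* libraries. The filter was set before a library was left out, so the lasting calls of Mst57Dc and CG12290 give no support. Maternal markers summed to 1893 to 1945 FPKM in White* eggs, 1748 to 1784 in Fab2L eggs and 1557 to 1725 in Red* eggs. Of the zygotic markers only slam was above 0 in eggs. It was at 14.8 to 15.4 FPKM in White*, 17.1 to 18.2 in Fab2L and 17.1 to 18.1 in Red*. The eggshell markers Cp36, Cp38, Cp15 and Vm26Aa summed to 0.191 to 0.323 FPKM in White* eggs, 1.45 to 1.72 in Fab2L and 0.106 to 0.286 in Red*. The testis markers Mst87F, dj and Mst84Da summed to 0.508 to 0.575 in Fab2L eggs and to 0 in White* and Red*. All these sums are low. The part of these shifts in the egg calls was not tested.

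CG5455 (3R 26461527 to 26470008, run 1) had the largest change. Its level in eggs was 1.43 and 1.58 FPKM in White*, 12.3 and 11.8 in Fab2L, 10.7 and 9.76 in Red* and 9.39 and 8.94 in w1118. Both White* libraries lay below all 6 others, the lowest of which was 5.68-fold above the higher White* library. The fall was 2.38 (log2 difference -2.38 ± 0.06, limma adjusted p = 8.6e-07) against Fab2L and 2.16 (-2.16 ± 0.06, adjusted p = 4.2e-06) against Red*. It passed under every alternative in both comparisons.

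The low level of CG5455 was not seen in heads. There it was 63.4 and 69.8 FPKM in White*, 54.3 and 61.5 in Fab2L, 57.0 and 49.7 in Red* and 74.6 and 75.4 in w1118, and the difference from Fab2L was 0.20 ± 0.10 (limma adjusted p = 0.717). The difference between the tissues, in a fit of both tissues added after the values had been seen, was 2.58 ± 0.12 (heads minus eggs). The gene was chosen for its egg change, so this is a description with no p. The gene held the nonsynonymous G26466814A and the synonymous T26468158G.

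CG12290 and CG5039 were also lower in White* eggs than in Fab2L eggs. CG12290 was at 0.179 and 0.214 FPKM in White*, 1.41 and 1.31 in Fab2L, 2.31 and 1.96 in Red* and 0.278 and 0.395 in w1118. White* and w1118 were both low for this gene, and White* was the lower. CG12290 passed the filter on low values only through its Fab2L and Red* libraries, where it was high, so no p is given. Its log2 difference was -0.98 ± 0.10 from Fab2L and -1.39 ± 0.10 from Red*. CG5039 was at 5.47 and 5.76 FPKM in White*, 11.7 and 10.4 in Fab2L, 9.68 and 9.12 in Red* and 7.39 and 7.95 in w1118, lowest in White*, and its difference from Fab2L was -0.86 ± 0.07 (adjusted p = 0.000541). CG5039 also overlaps CG4743, and CG12290 overlaps a long noncoding RNA gene.

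Mst57Dc, a male-specific transcript gene of the accessory gland, was at 1.71 and 1.04 FPKM in White* eggs. It was at 0.175 and 0.0942 in Fab2L, at 0 in both Red* libraries and at 0 and 0.0775 in w1118. White* was the highest at a level near the filter, and the log2 difference from Fab2L was 1.05 ± 0.14, with a limma adjusted p of 0.0164 in the fit with no filter on low values.

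The other named changes in eggs against Fab2L were smaller. CG14252 rose by 0.62, CG6073 by 0.50, Hrb98DE, an hnRNP that binds pre-mRNA, by 0.46, and l(3)mbt by 0.41. CG31075 and CG6051 fell by 0.37 each. For l(3)mbt the levels were 7.93 and 7.83 FPKM in White*, 5.97 and 5.44 in Fab2L, 5.85 and 6.14 in Red* and 7.29 and 6.70 in w1118, highest in White*. Its call against Fab2L was lost without White* replicate 2 (limma adjusted p = 0.0843), while that against Red* (0.34 ± 0.06, adjusted p = 0.00501) held in all alternatives. The gene overlaps CG14260.

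With ties, 13 genes held 8 or more exonic SNPs. In eggs 9 of them were tested. Against Red* 3 of these were called, where 44.2% of all genes were. Against Fab2L 5 were called, namely l(3)mbt, RASSF8, Nf1, woc and Ctl2. There 15.4% of all genes were called and 37.9% of genes in the runs with no SNP. In heads 12 were tested, and none was called against Fab2L or Red* by limma (1 and 2 at an unadjusted p below 0.05), where 0.117% and 3.87% of all genes were. In eggs woc (-0.34 ± 0.05, adjusted p = 0.00713) and Ctl2 (-0.32 ± 0.05, adjusted p = 0.0111), a gene of the choline transporter-like family, were lower in White*, calls that were lost without White* replicate 2 (adjusted p = 0.0829 and 0.0933). RASSF8 was higher in White* (0.29 ± 0.07, limma adjusted p = 0.0313), as was Nf1 (0.19 ± 0.05, adjusted p = 0.0399). These 2 calls were lost too without that library (adjusted p = 0.215 and 0.185). The levels of CG3368, with its 8 nonsynonymous SNPs, were 21.3 and 20.4 FPKM in White* eggs and 20.3 and 21.9 in Fab2L eggs, and the difference was -0.02 ± 0.05 (adjusted p = 0.859). For htt the difference was -0.12 ± 0.07 (adjusted p = 0.243).

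Between White* and Red* eggs 38 of the 76 genes were called (50%), 15 higher and 23 lower in White*, where 44.2% of all genes were called (22.7% higher and 21.5% lower). Mst57Dc passed the filter only through its White* libraries, and without it 37 of 75 genes were called (49.3%), 14 higher and 23 lower. CG12290, among the 23, passed it only through its Fab2L and Red* libraries. An unadjusted p below 0.05 was reached by 56.6% of the 76 and 53.2% of all. The median log2 difference was -0.04 over the 76 genes and 0.02 over all genes. Leaving out White* replicate 2 lowered the count to 21, and 21 genes were called in each of the 4 fits without 1 library. White* enters both comparisons in eggs, so their calls are not independent.

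The 10 largest differences from Red* eggs began with CG5455 and CG12290. Mst57Dc (1.23 ± 0.14), CG14252 (0.68 ± 0.10) and CG14545 (0.53 ± 0.17) were higher in White*. Pdhb (-0.84 ± 0.08), CG5039 (-0.65 ± 0.07), CG31075 (-0.54 ± 0.05), woc (-0.50 ± 0.05) and Cnx99A (-0.49 ± 0.06), the endoplasmic reticulum chaperone calnexin, were lower. The call of CG14545, the gene with the highest egg level, depended on single libraries: White* eggs held 308 and 333 FPKM and Red* eggs 274 and 180, and the limma adjusted p of 0.0348 became 0.163 without White* replicate 2.

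The levels of w1118 stood differently to those of White* from gene to gene, shown here for 3 genes picked after their values were seen. For woc they were 36.2 and 35.0 FPKM in White*, 38.3 and 36.9 in w1118, 45.4 and 45.0 in Fab2L and 49.4 and 51.9 in Red*. For CG31075 they were 43.7 and 41.3 in White*, 40.2 and 41.7 in w1118, 54.4 and 56.4 in Fab2L and 62.2 and 62.0 in Red*. White* and w1118 overlapped for CG31075 and not for woc. For Cnx99A White* was lowest, with 28.8 and 27.9 in White* and 38.0 and 36.4 in w1118.

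Genes without an exonic SNP in the same runs give the background for these counts. In eggs against Fab2L, 29% of 31 genes with a promoter or intron SNP were called and 37.9% of 58 genes in the runs with no SNP, beside the 34.2% of genes with an exonic SNP. On the rest of 3R the share was 15.3%, and on other chromosome arms 14.8%. The exonic group was thus above the rest of the genome and within the range of its neighbours without exonic SNPs. Among the exonic group, 12 of 31 genes with a nonsynonymous or nonsense SNP were called, 7 of 25 with synonymous coding SNPs only and 7 of 20 with UTR SNPs only.

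In eggs against Red*, the shares were 35.5% of genes with a promoter or intron SNP, 53.4% of genes in the runs with no SNP, 39.8% on the rest of 3R and 45.4% elsewhere, beside 50%. In heads against Red*, 10.8% of genes in the runs with no SNP were called, beside 6.78% of genes with an exonic SNP and 4.23% of genes with a promoter or intron SNP. In heads against Fab2L, 1 gene was called in each of the 3 groups. No test of these differences between groups was made, since genes in a run are inherited together.

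**Figure D5:**
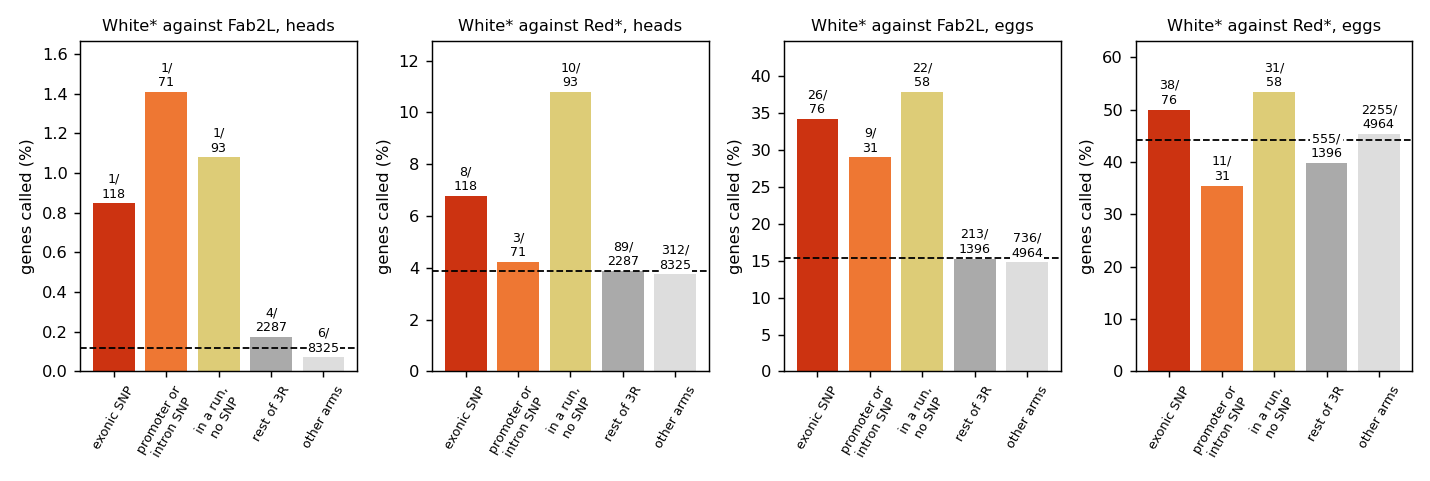
Percentage of tested genes called at an adjusted p below 0.05 (vertical axis, a separate scale in each panel) by position and SNP class (horizontal axis), in 4 comparisons of White*; numbers above the bars are genes called and tested, and the dashed line is the share over all genes. In eggs against Fab2L all 3 groups inside the runs lie at or above 29%, beside 14.8% on other arms.

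The levels of both White* libraries lay outside the range of the 6 other egg libraries for 25 of the 76 genes (32.9%), 8 above and 17 below, beside 31.2% of all genes tested (16% above and 15.2% below). By direction the 76 genes had 10.5% above and 22.4% below. In heads this held for 13 of 118 genes (11%), 6 above and 7 below, beside 9.38% of all (4.93% above and 4.45% below). Mst57Dc in eggs and CG33346 in heads are among those above, and both passed the filter only through their White* libraries. Among those below, CG12290 in eggs passed it only through Fab2L and Red*, and CG31077 in heads only through w1118 and Red*.

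The test of heads against eggs covered 6400 genes, 70 of them with an exonic SNP. The difference of White* from Fab2L was called as unequal in the 2 tissues for 10 of the 70 genes, where 4.88% of all genes were called, and that from Red* for 29 of the 70, where 37.3% of all were called. CG5455 and CG12290 were among them in both comparisons, CG12290 with 1.04 ± 0.12 (heads minus eggs, log2) against Fab2L. Both genes are named for their egg changes, so no p is given for them. In heads CG12290 was at 17.1 and 16.9 FPKM in White* and at 15.7 and 16.9 in Fab2L.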

How the data were processed

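The members and gene lists were chosen with earlier results of these data known. The authors deposited, per the labels, variant lists made from genomic DNA with Bowtie2, Picard and SAMtools on build dm6, as the submitters' processing notes name them. For each SNP the deposited columns give its genotype, annotation and a quality score whose scale is not stated. Long RNA was deposited by the authors as FPKM per gene; STAR 2.5 and DESeq2 are named in the submitters' processing notes, and the annotation release and strand setting are not given in the sources used here. Depth was read from FPKM steps of short genes, for which 95.6 to 99.2% of values were whole reads within 0.01 read. The extraction text of the egg libraries names adult male heads; the titles were followed, also for the replicate numbers of the Red* egg libraries, which differ from the file labels.

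Locations were read in Python 3.11.15 with pandas 2.3.3, and genes were matched to RefSeq. FPKM was tested by limma-trend (limma 3.58.1, R 4.3.3) on log2(FPKM + 1) for genes above 1 FPKM in 2 or more libraries of the tissue, fitting the 8 libraries together, with p-values adjusted by Benjamini-Hochberg. The script was tested on simulated data. Genes are named that gain a stop, are called (at most 10 per comparison, by size), have the most exonic (10) or nonsynonymous (5, with ties) SNPs, or are in a list. Alternatives changed the pseudocount, filter, scaling, lines in the fit, block, libraries, SNP class, quality score and run gap. Over deviations from line means, same-numbered libraries of White* and Fab2L correlated at -0.01 in heads and 0.09 in eggs. Those of White* and Red* did so at 0.23 and -0.20. The highest value for any pair of lines was 0.36, for w1118 and Fab2L in eggs. The labels do not say that equal numbers share a culture or day, so the numbers were not taken as pairs.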

Additional observations from a re-analysis of the deposited data

Results flagged for a closer look

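For 3 genes with an exonic SNP the difference between White* and Red* was called in both tissues with opposite signs. The size of the gap between the tissues was taken from 1 limma fit of all 16 libraries over 6400 genes, added after the values had been seen, in which 37.3% of all genes passed. Because the genes were chosen for their opposite calls, the gap is given as a description with no p. Pdhb was higher in White* than in Red* in heads (0.91) and lower in eggs (-0.84), and the 2 log2 differences stood 1.75 ± 0.19 (SE) apart. For CG6420 they were 0.52 and -0.45, which is 0.97 ± 0.12 apart. For CG6051 they were 0.42 and -0.37, which is 0.80 ± 0.08 apart. CG5039 and CG6073, the other genes called in both tissues, kept 1 direction. The head call of CG6051 was lost in each of the 4 fits without 1 library (limma adjusted p from 0.0623 to 0.183). Those of CG6420 and Pdhb held in 1 of the 4, the fit without Red* replicate 2.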

How the results depend on the processing

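Under up to 10 alternatives per comparison, plus 1 added after the data were seen, no called gene with an exonic SNP changed sign: of 760 gene values, 583 stayed past the threshold and 177 did not. With only SNPs free of another class, exonic SNPs numbered 289 and genes 108. With a score at or above the median of the list they numbered 266, of which 56 were nonsynonymous. A gap of 200 kb gave 3 runs. In heads against Fab2L the count of 1 became 0 at a pseudocount of 0.1 and above 5 FPKM, and 0 to 1 without single libraries. In heads against Red* the count of 8 became 4 with no filter, 2 with only the 2 lines compared, 4 with the replicate block, and 1 to 9 without single libraries. In eggs against Fab2L leaving out single libraries gave 4 to 14 of the 26 (12 and 11 without Fab2L replicate 1 and 2), and in eggs against Red* 21 to 31 of the 38. Where 1 library was left out, the lone library was assumed to vary like the other lines. Counts over all genes in those fits are not given here. Without them, a lower count of genes with an exonic SNP is not read as more than a general loss of calls. The replicate block gave 1, 26 and 39 in the other comparisons, and 39 with the Red* numbers crossed. The causes were not tested. White* and Fab2L heads have the fewest reads, no alternative matched depth, and the genotypes come from pools without replicate calls.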
